A study of Bos taurus with 4 samples.

Results

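Granins are the acidic proteins that fill the dense-core granules of neuroendocrine cells. This account covers 10 of the 35964 library clones of a mouse cDNA array: every clone whose annotated gene symbol was Chga, Chgb, Scg2, Scg5 or Vgf. The array was hybridised with RNA of chromaffin cells from cattle, the catecholamine-secreting cells of the adrenal medulla. Treated cells had received PACAP (pituitary adenylate cyclase-activating polypeptide) in vitro at 100 ng/ml for 6 h at 37 C, and control cells of the same repeat number served for comparison. The 4 arrays, called biological repeats in the labels, form 1 group: on each, PACAP RNA carried Cy5 and control RNA carried Cy3. No animal age or strain, vehicle or preparation is given in the sources used here, nor whether repeats came from separate animals, so the p-values measure the spread between these arrays, which may be partly technical. Without a dye swap, a clone's dye preference and its PACAP response cannot be told apart.

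Granins bind calcium and catecholamines in the acid granule lumen, help granules to form, and are cut at paired basic residues into peptides that are released together with the catecholamines. PACAP is a transmitter of the splanchnic nerve at the chromaffin cell; its receptor raises cyclic AMP and calcium, which drive both secretion and transcription. Chga (chromogranin A) and Chgb (chromogranin B) are the most abundant soluble granule proteins, Scg2 (secretogranin II) is the precursor of secretoneurin, Scg5 (the 7B2 protein) is a chaperone of prohormone convertase 2, and Vgf is a neurotrophin-inducible granin-like peptide precursor.

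Of the 10 clones, 3 carried the symbol Chga, 2 Chgb, 1 Scg2, 3 Scg5 and 1 Vgf. The title in the scanner tables matched the symbol for 4 of them: Chga clone AI839579, Chgb clone BE948387, Scg5 clone AI847365 and Vgf clone AI839209. It named no gene for 4 others (Chga AI836097, Chgb BE948388, Scg5 AI838238 and Scg5 AI850699). It named another gene for 2: Chga clone AI847067 is titled as a Nedd4 relative and Scg2 clone AI842476 as patched homolog. Symbols rest on platform accessions that equal the scanner identifier only for AI839579. A clone outside this set, AI842471, is titled secretogranin II but has no symbol, and its values are given beside those of Scg2. Scg5 clone AI850699 had a spot area of 0 pixels on all 4 arrays and was not measured. The other 9 member clones had values on all 4 arrays, with spot areas of 76 to 137 pixels. All 5 symbols have a protein-coding bovine counterpart of the same name in RefSeq. The probes are mouse sequences, so divergence from the bovine transcript can lower a clone's signal.

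Arrays differed in dye balance. The median log2(Cy5 / Cy3) before normalisation was 0.58, 0.54, 0.07 and -1.17 on repeats 1 to 4, and control signal exceeded 2 local background SD in 46.0 to 80.9% of library spots on repeats 1 to 3 but in 98.3% on repeat 4. After normalisation, log2 ratios over all tested clones correlated at Pearson's r of 0.232 to 0.385 among repeats 1 to 3 and of -0.128 to -0.008 with repeat 4. Repeat 4 therefore stands apart, and means without it are given below. Of 8 chromaffin markers 4 were measured: Th, Ddc and Gata3 had control signal above background on all 4 arrays and Slc18a1 on 1. Control signal above background on at least 3 arrays was also found for 5 of 6 adrenal cortex and 5 of 5 fibroblast markers, so this check does not set chromaffin cells apart from the other cells of an adrenal preparation. None of the 27 markers measured over 7 cell types passed the test, and their part in the granin values was not tested. The labels enter the tissue as brain.

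Spot signals are linear intensities with the local background already removed. For the Chga clone with a matching title, AI839579, the PACAP signal was 26621.5, 15247.6, 7274.6 and 13973.6 on repeats 1 to 4, and the control signal was 14654.8, 4090.2, 3270.6 and 35270.2. For the matching Chgb clone, BE948387, the PACAP signal was 7963.5, 8993.2, 3634.8 and 5308.8, against 1525.7, 1025.9, 715.3 and 12462.4 in the control. In both clones PACAP RNA gave the brighter signal on repeats 1 to 3 and the dimmer one on repeat 4, which is also the direction of the median spot. All Chga, Chgb and measured Scg5 clones were above 2 background SD in both channels on 4 of 4 arrays. The Scg2 and Vgf clones were above it in the control channel on 2 of 4, repeats 1 and 4.

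**Figure D1:**
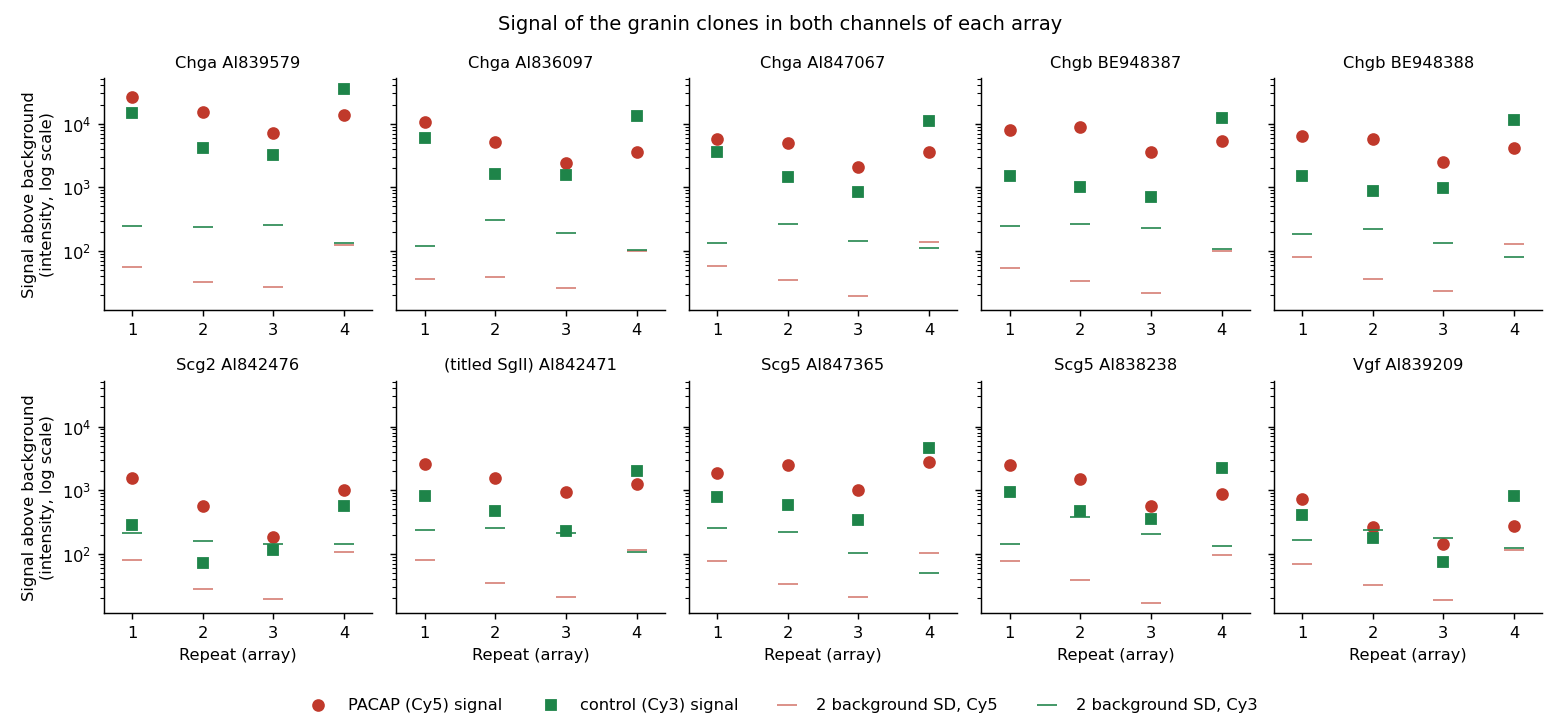
Signal above background (intensity, log axis) in the PACAP channel (Cy5, circles) and control channel (Cy3, squares) on each of 4 arrays, for 9 member clones and the clone titled secretogranin II (titled SgII); short bars mark 2 local background SD of each channel. Chga and Chgb stand far above these bars, while the control signal of Scg2 and of Vgf lies below them on repeats 2 and 3.

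The ratio of a spot depended on its brightness. A loess curve of ratio on brightness was fitted to each array. On repeats 1 to 3 it fell over the dim spots and rose from there towards bright spots. Its lowest bins were 0.24, -0.094 and -0.45 at mean log2 intensities near 7.75, 7.25 and 6.75. The Scg2 and Vgf spots of repeats 2 and 3 lay near these lowest stretches, where the curve stood at 0.17 and -0.10 for Scg2 and at 0.26 and -0.48 for Vgf. At the brightness of Chga clone AI839579 it stood at 1.43, 2.45 and 1.73, whereas on repeat 4 it stood at -1.04, near that array's median. The clone's own log2 ratio before normalisation was 0.86, 1.90, 1.15 and -1.34. It thus lay below the curve on every array, although on repeats 1 to 3 it lay above the array's median spot. The median spot of the nearest brightness bin had 1.43, 2.14, 1.51 and -1.26. On repeats 2 to 4 this was below the curve of that bin (2.41, 1.73 and -1.05). The clone lay below these bin medians too, but on repeats 2 to 4 by less than its distance from the curve. Chgb clone BE948387, at 2.38, 3.13, 2.35 and -1.23, lay above the curve (1.23, 2.20 and 1.49) on repeats 1 to 3 and just below it (-1.12) on repeat 4. Values from here on are the distance from the curve, as log2(PACAP / control), with mean ± SD over 4 arrays.

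**Figure D2:**
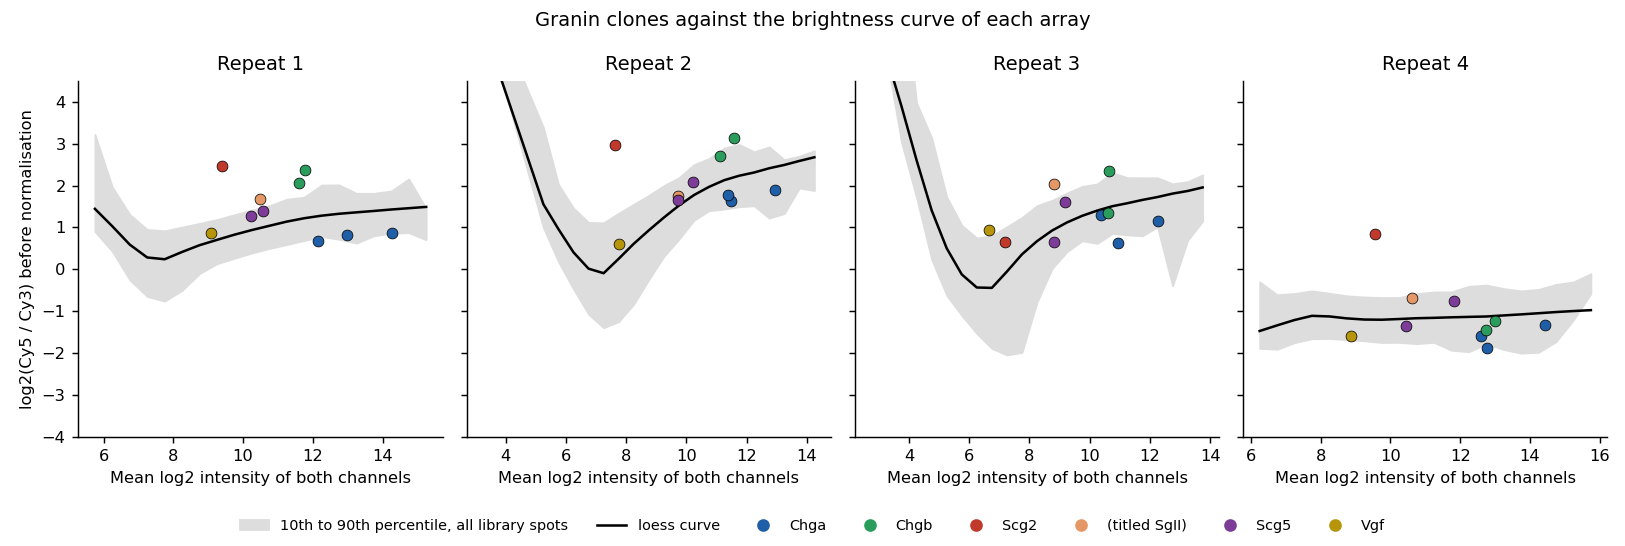
Log2(Cy5 / Cy3) before normalisation against the mean log2 intensity of both channels, 1 panel for each array; the grey band spans the 10th to 90th percentile of all library spots, the line is the loess curve and coloured points are the granin clones. The vertical axis ends at 4.5 and leaves out the dimmest spots of repeats 2 and 3. Chga points lie below the curve on all 4 arrays, and the Scg2 point lies above it on all 4.

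No granin clone passed the test across the array: limma called 0 of the 9 after Benjamini-Hochberg adjustment over all 35112 tested clones, and it called 0% of the whole array. At an unadjusted p under 0.05 stood 2 of the 9 as higher (Scg2 AI842476 and Chgb BE948387; 3.92% of all tested clones were) and 1 as lower (Chga AI836097; 6.46% of all), together 3 of 9 against 10.4% of the array. The Scg2 clone entered the test only through its PACAP channel, as its control signal exceeded background on 2 of 4 arrays. Of the 9, 2 were higher on all 4 arrays (10.1% of all clones with 4 values), 3 were lower on all 4 (8.71%) and 4 were mixed. Under median centring, which subtracts only each array's median and not the curve, 4 of the 9 were higher (7.68% of all) and 0 lower (9.69%) at an unadjusted p under 0.05, and 2 were higher on all 4 arrays (13.1%). The median of the 9 was 0.25, against -0.014 over all tested clones, which ranged from -0.66 at the 10th percentile to 0.50 at the 90th. By array, 6, 6, 4 and 2 of the 9 were higher on repeats 1 to 4. In RNA of whole cultures, a different share of chromaffin cells and a different level of transcript per cell cannot be told apart.

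**Figure D3:**
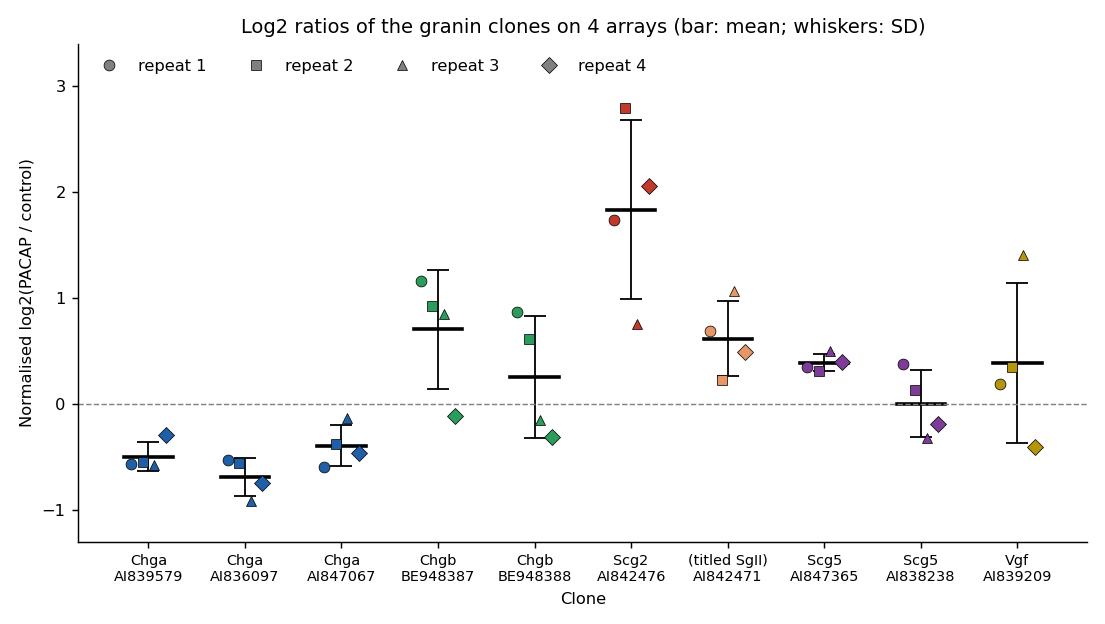
Normalised log2(PACAP / control) of 9 member clones and the clone titled secretogranin II (titled SgII); symbols are the 4 arrays, thick bars the means and whiskers the SD (n = 4). All 12 Chga points lie below 0 and all 4 Scg2 points above it, while the Chgb clones are higher on repeats 1 and 2 and below 0 on repeat 4.

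Chga lay below the brightness curve on all 4 arrays in each of its clones, although its PACAP signal was above its control signal on repeats 1 to 3. The matching clone AI839579 had -0.57, -0.55, -0.58 and -0.30 on repeats 1 to 4, a mean of -0.50 ± 0.14 (n = 4; limma adjusted p = 0.486). The untitled clone AI836097 had -0.53, -0.55, -0.91 and -0.75, with a mean of -0.69 ± 0.18 (limma adjusted p = 0.454). Clone AI847067, whose title names another gene, had -0.60, -0.38, -0.13 and -0.47, with a mean of -0.39 ± 0.20 (limma adjusted p = 0.551). The clones were within 0.18 of each other on repeats 1 and 2, but on repeat 3 they spread over 0.78, more than the mean of the gene. Averaged over the 3, Chga stood at -0.57, -0.50, -0.54 and -0.50 on the arrays, a mean of -0.53. Its ratio of PACAP to control was thus 0.69 times the ratio that the curve gives. For the matching clone, part of this distance on repeats 2 to 4 lay between the curve and the median spot of the nearest brightness bin. The direction of the Chga ratio depends on the brightness curve. Under median centring the same clones had 0.64 ± 0.71, 0.29 ± 0.76 and 0.54 ± 0.84 (limma adjusted p = 0.344, 0.655 and 0.439). Without repeat 4 the loess means were -0.57, -0.67 and -0.37.

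Chgb was higher on repeats 1 and 2 in both clones. The matching clone BE948387 had 1.16, 0.93, 0.85 and -0.11, a mean of 0.71 ± 0.56, or 1.63-fold (limma adjusted p = 0.467), and 0.98 without repeat 4. The untitled clone BE948388 had 0.87, 0.61, -0.15 and -0.32, a mean of 0.25 ± 0.58 (limma adjusted p = 0.739), which was 0.049 without repeat 1 and 0.44 without repeat 4. The 2 clones differed most on repeat 3, by 1.00, and BE948387 was the higher on all 4 arrays. Under median centring both were higher than in the reported values, at 1.65 ± 1.19 and 1.16 ± 1.03. Repeat 4 stood at -0.062 and -0.27 there, below 0 as with the curve. In the deposited log2 ratios centred on their medians, both means were below 0, at -1.25 and -1.95.

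Scg2 had the highest mean ratio of the set, but not the highest value on repeat 3. The clone had a PACAP signal of 1577.4, 555.8, 182.0 and 1009.3 and a control signal of 283.0, 71.4, 115.7 and 558.7 on repeats 1 to 4. The log2 ratios were 1.74, 2.79, 0.75 and 2.06, with a mean of 1.84 ± 0.84 (limma adjusted p = 0.454). Only repeats 1 and 4 had control signal above 2 background SD (212.8 and 141.2), and there the ratio was 1.74 and 2.06. With the control raised to 2 background SD on repeats 2 and 3, their ratios fell to 1.45 and 0.64. The ratios were above 0 with either treatment of the dim control spots, and the mean with the floor was 1.47. The clone, like that of Vgf, passed the filter on dim spots through its PACAP channel and was not tested where both channels had to exceed background. The authors' calibrated ratio, Cy5 over Cy3 divided by an array-wide factor, was 3.31, 3.94, 1.03 and 4.18, close to 1 on repeat 3 alone. Without repeat 4 the mean was 1.76. Under median centring it was 1.73 ± 0.80, close to the 1.65 ± 1.19 of Chgb clone BE948387.

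The clone titled secretogranin II, AI842471, was also higher on all 4 arrays, but by less. It had 0.69, 0.22, 1.06 and 0.49, with a mean of 0.62 ± 0.36 (limma adjusted p = 0.470). Its control spots exceeded 2 background SD on each array, but narrowly on repeat 3 (224.3 against 214.0), where its ratio was highest. The Scg2 clone exceeded it by 1.05, 2.57 and 1.57 on repeats 1, 2 and 4 and was below it by 0.31 on repeat 3. The value of repeat 2 rests on the dim control spot of the Scg2 clone, and with the floor it was 1.22, for a mean difference of 0.86 ± 0.87 in place of 1.22 ± 1.20. The array where one clone was lowest was not the array where the other was: AI842476 was lowest on repeat 3 and AI842471 on repeat 2. Which of these clones carries Scg2 cDNA cannot be settled from symbol and title. No sequence is shown, because the files used here hold none for these clones.

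Scg5 showed a small difference in 1 of its 2 measured clones. The matching clone AI847365 had 0.35, 0.31, 0.50 and 0.40, a mean of 0.39 ± 0.08 or 1.31-fold (limma adjusted p = 0.545), the smallest spread of any member. The clone without title, AI838238, had 0.38, 0.13, -0.32 and -0.19 (mean 0.0014 ± 0.32; limma adjusted p = 0.998). The 2 clones lay within 0.18 of each other on repeats 1 and 2 and apart by 0.82 and 0.58 on repeats 3 and 4. Under median centring AI847365 stood at 1.05 ± 0.58 and AI838238 at 0.58 ± 0.56. Without repeat 4 they had 0.38 and 0.064.

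Vgf was dim and varied between arrays. Its PACAP signal was 730.1, 264.9, 140.2 and 269.4 and its control signal 403.0, 173.7, 73.6 and 809.5. The log2 ratios were 0.19, 0.35, 1.41 and -0.40, a mean of 0.39 ± 0.75 (95% interval -0.36 to 1.13; limma adjusted p = 0.650). The highest value, on repeat 3, came from a control spot below background. With the control raised to 2 background SD, repeats 2 and 3 gave 0.087 and 0.011 and the mean was -0.029. Without repeat 3 the mean was 0.046 and without repeat 4 it was 0.65.

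Members were also compared with each other within arrays, where a ratio shows unequal change and not which gene changed. With clones of a gene averaged, Chgb exceeded Chga by 1.58, 1.26, 0.89 and 0.29 on repeats 1 to 4, a mean of 1.01 ± 0.56. Scg5 exceeded Chga by 0.93, 0.72, 0.63 and 0.61 (0.72 ± 0.15). Both differences kept their sign on 4 of 4 arrays under median centring, at 0.92 ± 0.51 and 0.32 ± 0.26. That of Scg5 was then 0.10 and 0.093 on repeats 2 and 3. By clone, Scg5 AI838238 (0.58) there fell below Chga AI839579 (0.64), but not below AI836097 (0.29) or AI847067 (0.54). Scg5 AI847365 (1.05) and both Chgb clones (1.65 and 1.16) stayed above each Chga clone. The order of Scg5 and Chga without the curve thus depended on the clone. Scg2 stands here for clone AI842476, whose title names another gene. The clone titled secretogranin II, AI842471, had a lower mean of 0.62, against -0.53 for Chga. Scg2 exceeded Chga by 2.36 ± 0.82 on 4 of 4 arrays, but on 3 of 4 under median centring (1.24 ± 1.20). With the dim control spots raised to 2 background SD the difference was 2.00 ± 0.60. Vgf exceeded Chga by 0.91 ± 0.77, which was 0.50 ± 0.28 with that floor and -0.29 ± 0.58 under median centring. With 4 arrays an exact 2-sided permutation test that flips signs cannot go below p = 0.125, the value that 6 of the 10 pairs of genes reached (0.208 after adjustment over the 10).

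Other granule genes were read from a list of 37 processing enzymes, membrane and docking proteins. Of these, 26 were measured, each by its brightest clone: 12 were higher and 14 lower, with a median of -0.046, and limma called 0. Under median centring the count turned to 16 higher and 10 lower, with a median of 0.21. Clone titles were not checked against symbols for this list. With the curve, Ptprn counted as lower by a clone titled as a DnaJ homolog, while its 3 other tested clones were higher. Of the genes named below, the clones read for Rab27b and Cpe are titled only ESTs. That for Hid1 is titled only as weakly similar to a Caenorhabditis elegans protein. At an unadjusted p under 0.05 there were 1 higher and 1 lower of the 26, where 3.92% and 6.46% of all tested clones were. These were Pcsk6, a proprotein convertase, at 0.77 ± 0.79 (adjusted p = 0.476), with repeat 3 at 1.93 and control signal above background on 2 of 4 arrays, and Rab27b, a granule docking GTPase, at -0.90 ± 0.96 (adjusted p = 0.470). Pcsk6 was 0.071 with the floor at 2 background SD and 0.39 without repeat 3. Rab27b had 0.035 on repeat 4 and -2.02 on repeat 3, with a mean of -0.53 without the latter, and its 2 other clones were lower. Next in order of p were Hid1, which acts in granule maturation (0.69 ± 1.22), and Rab27a (-0.53 ± 0.61). With the floor these were 0.25 and -0.12, without repeat 3 they were 0.32 and -0.27, and Hid1 was 0.36 without repeat 2 and 1.11 without repeat 4.

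Among the enzymes and partners that act on granins, no named gene passed the test either. Scg3 (secretogranin III), which binds Chga and anchors it to the granule membrane, had 0.14, 0.51, 0.35 and 0.029 in its brightest clone, a mean of 0.26 ± 0.21 (limma adjusted p = 0.683) that was 1.26 under median centring (limma adjusted p = 0.233). Its 2 other clones had 0.41 ± 0.40 and -0.0044 ± 0.42 (1.41 and 0.37 under median centring), and were higher on 3 of 4 arrays each. Cpe, the carboxypeptidase that trims the cut peptides, had -0.26 on repeat 1 and 0.54, 0.51 and 0.44 on the others (0.31 ± 0.38; limma adjusted p = 0.652), with 0.94 under median centring and 0.50 without repeat 1, but its 2 other measured clones were lower. Pam, which amidates peptide ends, was lower on all 4 arrays, at -0.38 ± 0.27 (limma adjusted p = 0.569) and at -0.11 under median centring. The convertases Pcsk1 and Pcsk2 were not measured.

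**Figure D4:**
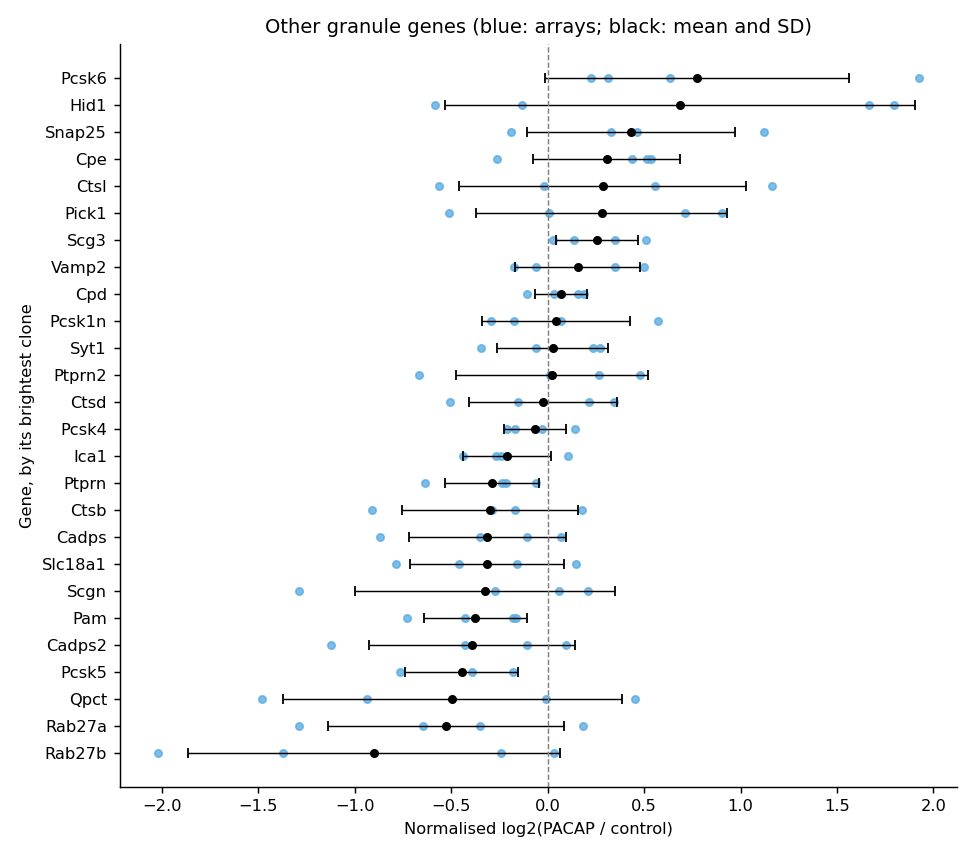
Normalised log2(PACAP / control) of 26 other granule genes, each by its brightest clone; blue points are arrays, black points and whiskers the mean and SD (n = 4 except Pcsk5, n = 3). Means run from -0.90 (Rab27b) to 0.77 (Pcsk6), and most whiskers cross 0.

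Likeness of pattern was measured as the root mean square difference of the 4 log2 ratios, over 11361 other named genes with 4 values. Nearest to Chga clone AI839579 were Icosl (0.0555), Med20 (0.0652) and Gdap1l1 (0.0675). Nearest to Chgb clone BE948387 were Cfi (0.133), Rpl10a (0.156) and C86187 (0.159), the last with a title that names an ABC transporter. For Scg5 clone AI847365 they were Ap3m1 (0.0499), Pdik1l (0.0596) and Nfya (0.0608), and for Vgf Hdc (0.109), Adi1 (0.110) and Cdkn1b (0.116). The Vgf pattern includes its dim control spots: the repeat 3 value of 1.41 was 0.011 with the floor at 2 background SD. The titles of the Icosl and Pdik1l clones name no gene, that of Ap3m1 is a RIKEN identifier, and the Adi1 spot has no title. With 4 arrays and so many genes the nearest are a description only, and Scg2 was left out because its title names another gene.

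**Figure D5:**
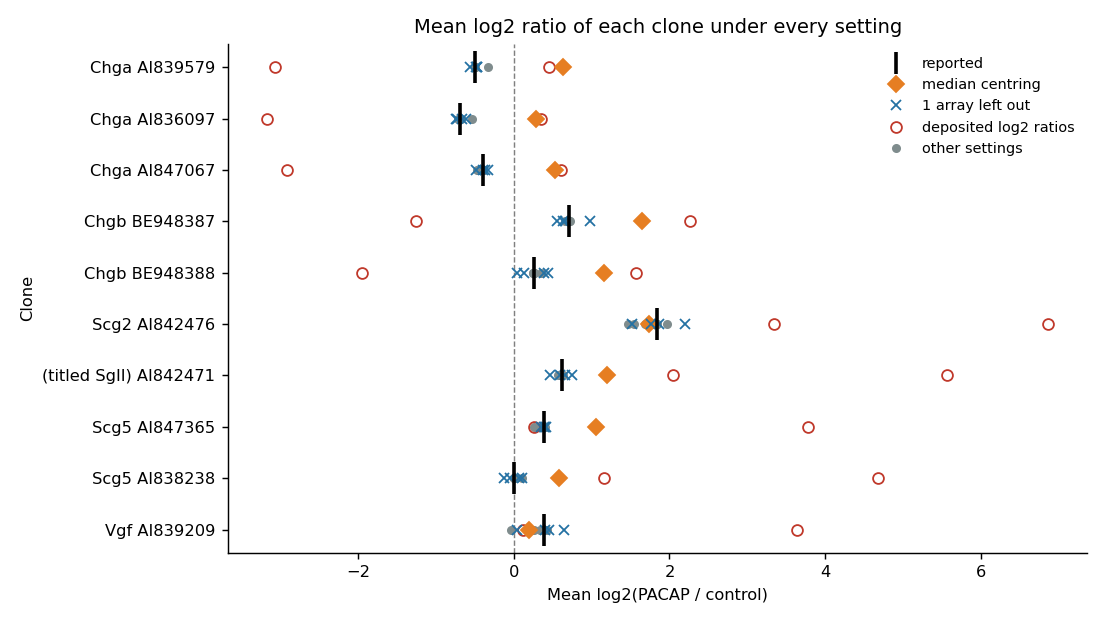
Mean log2(PACAP / control) of each clone in the reported analysis (black bar), under median centring (diamonds), with 1 array left out (crosses), from the deposited log2 ratios (open circles) and under the other settings (grey dots). The Chga means lie below 0 except under median centring and in the ratios as deposited, and every Scg2 mean is 1.47 or higher.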

How the data were processed

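RNA of PACAP-treated and control chromaffin cells was hybridised together on 4 arrays of 37632 spots in 48 print blocks. Per the file headers, each scanner table gives the deposited signal intensity, its local background and background SD, the spot area in pixels and a calibrated ratio. The authors' mean intensity already had the background removed, as total intensity over mean plus background gave a median of 114 to 126 pixels a spot. The deposited calibrated ratio is Cy5 over Cy3 divided by 1 factor per array (1.69, 1.97, 1.53 and 0.432). The deposited series table holds uncentred log2 ratios of PACAP over control. Recomputing them showed that local background had been taken off again, that differences under 1 were set to 1, and that the log2 calibration factor was then removed. Per array their medians are 4.67, 5.53, 4.25 and -0.38. No image analysis program is named in the labels used here.

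Series table entries were joined to spots plate by plate through these values: 35695 of 35873 were within 0.1 log2 units (median over arrays), and all 2302 joins that a shared identifier could check matched. Intensities were floored at 1, log2 ratios had the global loess curve of limma (version 3.58.1, under R 4.3.3) subtracted, spots of 0 area were left out and spots of 1 clone averaged. Clones that exceeded 2 background SD with either dye on 3 or more of the 4 arrays were tested (35112) with lmFit and eBayes against 0, 2-sided, with Benjamini-Hochberg adjustment over all and a threshold of 0.05. The steps were also run on simulated data, with outcomes not given here. That simulation used independent noise and no dye preference of single clones, so it cannot speak to such preferences. Exact tests went through all sign flips of the 4 array differences, and figures used matplotlib 3.10.9, under Python 3.11.15.

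Member genes, lists and tests were chosen with earlier results of these data known. All member clones are named. From the granule list those named are the 2 with the lowest p among higher and among lower genes, with Scg3, Pcsk1, Pcsk2, Cpe and Pam where measured, and the 3 genes nearest in pattern to each member whose title does not contradict its symbol. The number of arrays, 4, limits the precision.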

Additional observations from a re-analysis of the deposited data

Results flagged for a closer look

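In 29 sets of 4 array values, 3 held an array far from the other 3, by a check that chance alone meets in about 5% of sets. Chga clone AI839579 lay between -0.58 and -0.55 in 3 of its log2 ratios and at -0.30 in that of repeat 4. Cpe clone AI840044 lay between 0.44 and 0.54 on repeats 2 to 4 and at -0.26 on repeat 1. PACAP signal exceeded 2 background SD in 97.6 to 98.4% of library spots on repeats 1 to 3, and in 91.9% of them on repeat 4.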

How the results depend on the processing

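Of 15 alternatives, 13 called 0 clones over the whole array; trend and robust moderation called 3, and the deposited log2 ratios centred on their medians called 461, none of them a granin clone or a gene of the granule list. The deposited ratios as they stand are not centred, with a median over clones of 3.31. Chga turned positive under median centring (0.29 for AI836097, 0.64 for AI839579, 0.54 for AI847067) and in the ratios as deposited (0.35, 0.45 and 0.60). Chgb turned negative in the centred deposited ratios (-1.25 for BE948387, -1.95 for BE948388), as did Scg3 (-2.35) and Cpe (-2.31), while Pam turned positive there (0.13) and as deposited (3.65). As deposited, Rab27b had 1.91 and Rab27a 0.88. Scg5 clone AI838238, whose mean was 0.0014, was -9.55e-04 with a floor at 2 background SD, -4.98e-04 with an offset, -0.0015 without small spots and -0.13 to 0.11 with 1 array left out. Vgf was -0.029 with that floor. Scg2, Scg5 AI847365 and the clone titled secretogranin II kept their sign under every alternative that tested them; Scg2 was not tested where both channels had to exceed background, and ranged from 1.47 to 2.20 outside the deposited ratios. With 1 array left out, Chgb BE948387 ranged from 0.56 to 0.98 and BE948388 from 0.049 to 0.44. Each test was of within-array ratios, which pair treated with control RNA of a repeat, so no further block was fitted. The causes of these shifts were not tested.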

Other observations

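The deposited log2 ratios of 4 of the 9 measured granin clones do not hold a ratio of PACAP over control on every array. In 8 of the 36 values of member clones (1 on repeat 1, 4 on repeat 2, 3 on repeat 3 and 0 on repeat 4) the control signal was no larger than its local background, so the second subtraction set it to the floor. Those 8 deposited values run from 6.03 to 10.2, and the other 28 from -1.33 to 3.46. Scg5 clone AI847365 is an example: its deposited value on repeat 2 is 10.2, whereas its control signal there was 579.3, above 2 background SD (220.4), and its log2 ratio before normalisation was 2.09. The 3 Chga and 2 Chgb clones have no such value. Over all library spots the median control signal was also below the median local background on repeats 1 to 3. It was 306.4 against 345.5, 206.4 against 386.9 and 129.4 against 261.3, but 548.0 against 199.8 on repeat 4. Such values are therefore not read as a trait of granin clones, and the share of all spots set to the floor is not given here.

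Scg5 clone AI850699, which had a spot area of 0 on all 4 arrays, still has entries in the deposited table. They are -0.75, -0.98 and -0.61 on repeats 1 to 3, equal to minus the log2 of the array's calibration factor, and -1.196 on repeat 4. On repeat 4 the spot, despite its area of 0, has a PACAP signal of 268.9 and a control signal of 739.8. Both exceed their local background (157.3 and 151.1), so the second subtraction left a ratio there.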
